A study of Homo sapiens with 9 samples.

Results

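Integrins are the main receptors by which cells hold on to the extracellular matrix, and 10 genes that encode their subunits were followed here through MPZL3 knockdown in OVCAR4, an established cell line of human ovarian serous adenocarcinoma. The genes are the alpha subunit genes ITGA2, ITGA3, ITGA5, ITGA6 and ITGAV and the beta subunit genes ITGB1, ITGB4, ITGB5, ITGB6 and ITGB8. They were chosen by name from the 58735 genes of the count table, with earlier results of these data known. All 10 were among the 16928 genes that passed the filter on low counts. RNA-seq was done on 9 libraries of OVCAR4 cells transduced with lentivirus and selected with puromycin for 3 days. Of these, 3 carried a scrambled hairpin (scr control), 3 carried the hairpin shMPZL3 #1 and 3 carried shMPZL3 #2. All groups therefore share the vector, the selection and the cell line, and the scr control is labelled as wild type. The cells of a library are a transduced population rather than a clone, and each hairpin is 1 construct, so that a difference between the hairpins cannot be told apart from a difference in how far each lowered MPZL3.

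An integrin is a pair of 1 alpha and 1 beta chain, and the pair sets which ligand is bound. ITGAV joins with ITGB5, ITGB6 or ITGB8, among others, into receptors for ligands with an arginine-glycine-aspartate (RGD) motif, and its pairs with ITGB6 and ITGB8 are known for activating latent TGF-β. ITGB1 joins with ITGA2 into a collagen receptor, with ITGA5 into the classical fibronectin receptor, and with ITGA3 or ITGA6 into laminin receptors. ITGB4 pairs with ITGA6 alone, in the hemidesmosomes that anchor epithelial cells to laminin. Carcinoma cells of the ovary meet these ligands on the peritoneum and in the omentum, where they attach and spread.

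Total counts were 15040102 to 27835841 per library, and 0.243% to 0.392% of them fell on the 10 genes. MPZL3 itself had 536, 611 and 587 normalized counts in the scr control libraries, 119, 143 and 123 with shMPZL3 #1, and 284, 380.4 and 271 with shMPZL3 #2, where normalized counts are counts scaled to a library of average size. Its log2 fold change was -2.17 ± 0.16 (SE, adjusted P = 3.73e-07) with shMPZL3 #1 and -0.89 ± 0.15 (adjusted P = 0.000562) with shMPZL3 #2, and the level was higher with shMPZL3 #2 than with shMPZL3 #1 (1.28 ± 0.16, adjusted P = 5.72e-05). Of 7 markers of serous carcinoma cells, PAX8, MUC16, EPCAM, KRT7, KRT8 and KRT18 had at least 3381 counts in every library, and WT1 had at most 13. Blood cell markers were near 0, with at most 26 counts of PTPRC, 4 of CD3E and 1 of LYZ in any library. The summed level of 5 fibroblast markers was 15.9 to 20.2 CPM (counts scaled to a common library total) in the scr control, 35.7 to 51.3 under shMPZL3 #1 and 30.6 to 33.4 under shMPZL3 #2. Most of that sum came from COL1A1 and LUM, whereas DCN was at 0 in all libraries and COL3A1 and PDGFRB had at most 12 and 6 counts. The summed level of 3 endothelial markers, PECAM1, CDH5 and VWF, was 8.09 to 9.87 CPM in the scr control, 7.31 to 8.80 under shMPZL3 #1 and 12.4 to 16.1 under shMPZL3 #2. That of 3 mesothelial markers was 126 to 131 CPM, 82.2 to 120 and 115 to 181 in the same order. The part of these sets in the values below was not tested.

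Of the 10 integrin genes 5 were called higher after MPZL3 knockdown, and 5 differed between the hairpins. When both hairpins were taken as 1 knockdown group of 6 libraries, as the study grouped them, ITGA2, ITGA3, ITGA5, ITGB4 and ITGB6 were higher than in the scr control, and no member was lower. These 5 of 10 members stand beside 9.36% of all tested genes called higher and 6.40% called lower in this comparison. None of the 10 was lower at an unadjusted P under 0.05 or with DESeq2 either, but averaging the hairpins in the fit of 3 groups called ITGB8 lower (-0.40, adjusted P = 0.00497). The median log2 fold change of the 10 members was 0.40, and that of all tested genes 0.02. Because the members were chosen with earlier results known, setting them beside all genes is a description and not a test. Fewer cells of a kind and less RNA per cell cannot be told apart in such bulk libraries. In ITGA2, ITGA3 and ITGA5 every knockdown library lay above every scr control library. Of all genes 11.8% had every knockdown library above, and 11.0% had every one below. The exact two-sided permutation test gave each of these 3 its smallest possible value of P = 0.0119. That test reads the same separation and takes both hairpins as 1 group, so it adds no separate support.

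Taken singly, shMPZL3 #1 raised 7 members and lowered 1, whereas shMPZL3 #2 raised 3 and lowered 1. Among all tested genes 16.8% were called higher and 15.3% lower with shMPZL3 #1, and 9.36% and 5.80% with shMPZL3 #2. The median log2 fold change of the members was 0.55 with shMPZL3 #1 and 0.26 with shMPZL3 #2, beside 0.01 and 0.00 for all tested genes. Both comparisons use the same scr control libraries. In the direct comparison, ITGB8 was higher and ITGA6, ITGAV, ITGB5 and ITGB6 were lower with shMPZL3 #2 than with shMPZL3 #1, where 7.56% of all genes were called higher and 7.56% lower. With 3 libraries against 3 the exact permutation test cannot fall below P = 0.1, so the calls for single hairpins rest on the spread that edgeR's quasi-likelihood test shares across genes.

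**Figure D1:**
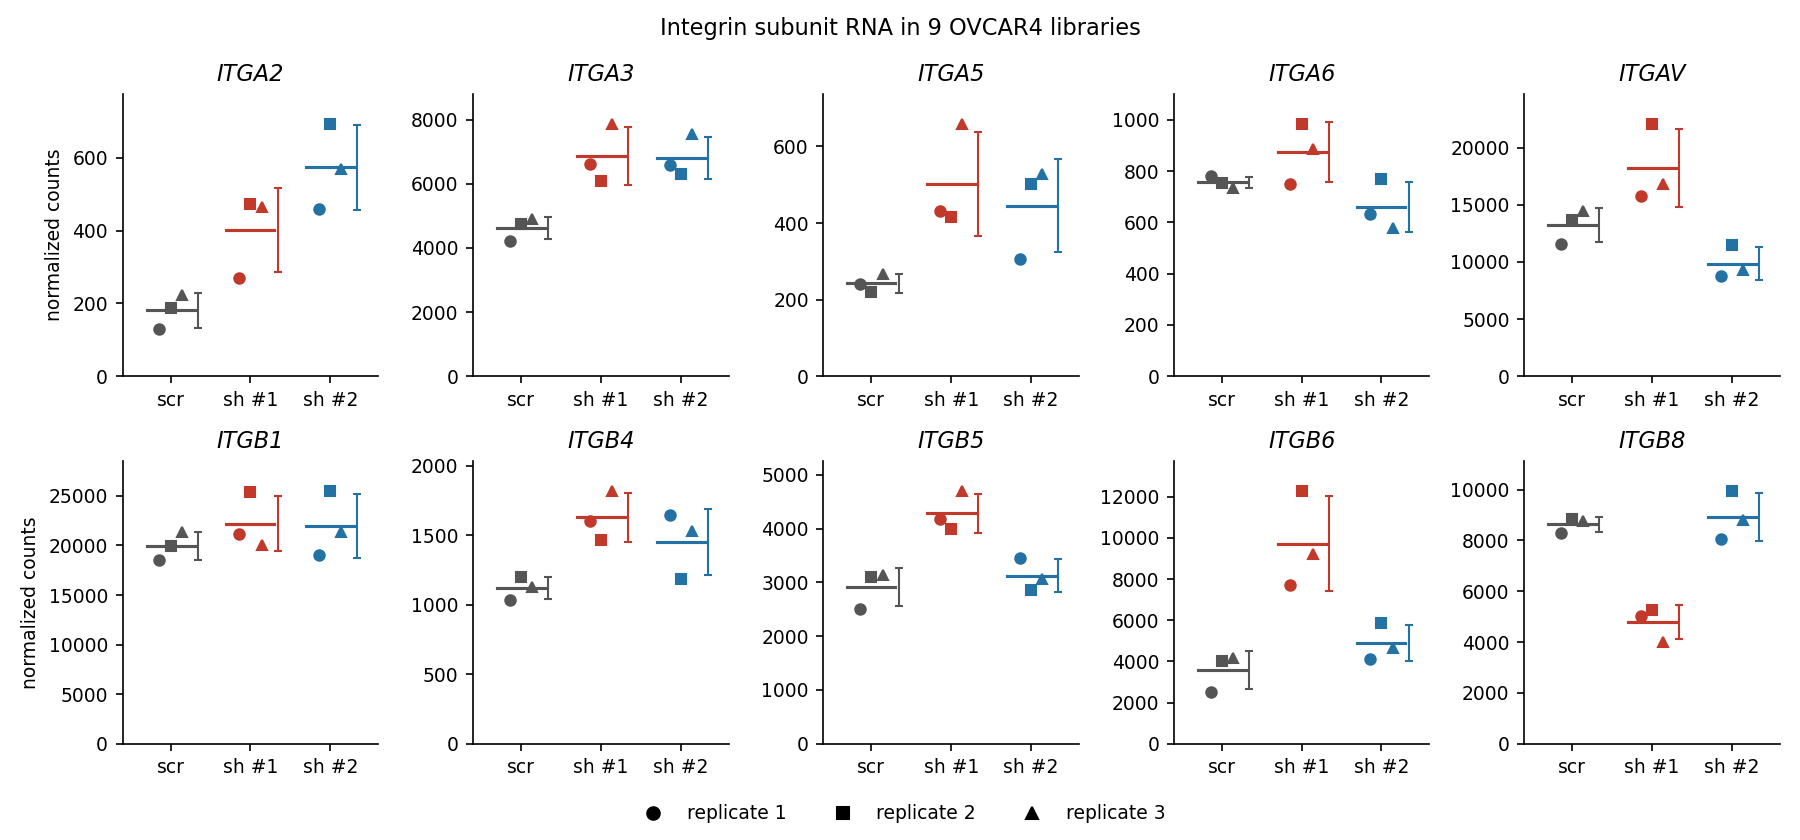
Normalized counts (y axes, each from 0) of the 10 integrin subunit genes in each of the 9 libraries, by group (x axes); symbols mark the replicate number, horizontal bars the mean of 3 libraries and vertical bars the SD. The knockdown libraries of ITGA2, ITGA3 and ITGA5 all lie above the scr control, ITGB6 and ITGB8 move apart with shMPZL3 #1, and ITGAV lies above the scr control with shMPZL3 #1 and below it with shMPZL3 #2.

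Among the chains that form ITGAV receptors, ITGAV, ITGB5 and ITGB6 rose and ITGB8 fell with shMPZL3 #1. ITGB6 (ENSG00000115221), the partner of ITGAV that is restricted to epithelia, lies on the minus strand of chromosome 2 (160099666 to 160200313, GRCh38, GENCODE release 29). It had 2524, 4036 and 4162 normalized counts in the scr control, 7716, 12268 and 9203 with shMPZL3 #1, and 4117, 5842 and 4673 with shMPZL3 #2. All libraries of shMPZL3 #1 were above all others, and those of shMPZL3 #2 overlapped the control. ITGB6 rose 2.72-fold with shMPZL3 #1 (log2 fold change 1.44 ± 0.19, adjusted P = 3.52e-05). With shMPZL3 #2 the log2 fold change was 0.45 with a 95% confidence interval of 0.06 to 0.84 (adjusted P = 0.111). This rise passed edgeR's test without a filter on low counts (adjusted P = 0.001), but was not called with DESeq2 or with other normalizations. The direct difference, shMPZL3 #2 minus shMPZL3 #1, was -0.996 ± 0.18 (adjusted P = 0.00164). In the grouped comparison ITGB6 rose by 1.03 ± 0.31 on the log2 scale (adjusted P = 0.0369). That call was lost without any 1 scr control library (adjusted P = 0.191, 0.0909 and 0.0787 without replicate 1, 2 and 3) and without shMPZL3 #1 replicate 1 or 3 (0.0588 and 0.0602). The overlapping gene AC092153.1, on the same strand, shares 966 of the 4687 exon bases of ITGB6. It had 26 counts over all libraries against 55755 for ITGB6. Whether reads in the shared bases were counted was not tested, and levels of ITGB6 per length, given below, may be too low.

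ITGB8 (ENSG00000105855; chromosome 7, 20330702 to 20415754, plus strand), the other partner of ITGAV that activates latent TGF-β, moved the opposite way. It had 8285, 8856 and 8752 normalized counts in the scr control, 5043, 5266 and 4016 with shMPZL3 #1, and 8072, 9935 and 8786 with shMPZL3 #2. Every library of shMPZL3 #1 was below every other library, and those of shMPZL3 #2 spanned the control. With shMPZL3 #1 it fell by 0.85 ± 0.11 on the log2 scale (adjusted P = 4.21e-05), to 0.553 times the control. With shMPZL3 #2 the log2 fold change was 0.05 (95% confidence interval -0.19 to 0.28), and the direct difference, shMPZL3 #2 minus shMPZL3 #1, was 0.90 ± 0.11 (adjusted P = 6.32e-05). These calls held without any 1 library. In the grouped comparison ITGB8 did not pass the test (log2 fold change -0.33 ± 0.23, adjusted P = 0.354). The libraries do not record strand, and an antisense gene, AC004130.1, shares 98 exon bases with ITGB8, with 815 counts over all libraries against 66499.

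The promoter windows of ITGB6 and ITGB8 are shown because these genes moved in opposite directions with the same hairpin. They are the RefSeq windows of GRCh38.p14 from 250 bases before to 50 bases from the start site, at chr2:160200223-160200522 on the minus strand and chr7:20330650-20330949 on the plus strand. Capitals mark matches, on either strand, to 4 motifs: AP-1 (TGANTCA), TEAD (GGAATG), SP (GGGCGG) and E-box (CAGGTG).
ITGB6: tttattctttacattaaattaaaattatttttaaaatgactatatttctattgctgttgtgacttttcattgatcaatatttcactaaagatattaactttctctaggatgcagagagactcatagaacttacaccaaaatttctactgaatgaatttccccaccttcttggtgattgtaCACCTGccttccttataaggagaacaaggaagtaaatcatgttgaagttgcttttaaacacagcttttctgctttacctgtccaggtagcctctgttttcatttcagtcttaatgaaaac
ITGB8: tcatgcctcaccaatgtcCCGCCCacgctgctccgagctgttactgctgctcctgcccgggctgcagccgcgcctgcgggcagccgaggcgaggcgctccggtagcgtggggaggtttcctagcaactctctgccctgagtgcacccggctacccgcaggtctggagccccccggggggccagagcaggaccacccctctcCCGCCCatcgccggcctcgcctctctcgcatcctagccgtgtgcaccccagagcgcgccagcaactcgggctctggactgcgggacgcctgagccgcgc
The ITGB6 window held 1 match, to the E-box, which starts at position -70 (the last base before the start site is -1), and its GC content was 31.7%. The ITGB8 window held 2 matches, both to the SP motif, at positions -232 and -49, and its GC content was 71.7%. Among 35116 RefSeq windows of this length, the SP motif was in 45.0%, the E-box in 20.6%, the TEAD motif in 14.0% and the AP-1 motif in 7.71%. RefSeq windows were found for 8 of the 10 members, ITGA3 and ITGB4 being the others. Of their 13 windows 9 held the SP motif, 3 the E-box, 2 the TEAD motif and 1 the AP-1 motif. The windows of ITGA6 overlap each other. The SP match at position 34 of window 1 is the same site as that at -217 of window 2, so it counts in both. A match of letters is a description of the sequence and does not show a binding site.

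ITGAV (ENSG00000138448; chromosome 2, 186590065 to 186680901, plus strand), the alpha chain common to these receptors, moved in opposite directions with the hairpins. It had 11591, 13706 and 14448 normalized counts in the scr control, 15745, 22102 and 16825 with shMPZL3 #1, and 8784, 11523 and 9264 with shMPZL3 #2. The 3 groups did not overlap, with shMPZL3 #1 highest and shMPZL3 #2 lowest. The log2 fold change was 0.46 ± 0.13 (adjusted P = 0.0151) with shMPZL3 #1 and -0.43 ± 0.13 (adjusted P = 0.0415) with shMPZL3 #2. The direct difference, shMPZL3 #2 minus shMPZL3 #1, was -0.89 ± 0.14 (adjusted P = 0.000386). In the grouped comparison the hairpins offset each other, at 0.08 with a 95% confidence interval of -0.44 to 0.61. The rise missed the threshold once scr control replicate 1 was removed (adjusted P = 0.0806) or shMPZL3 #1 replicate 2 was (0.0841). The fall was lost without scr control replicate 2 (0.131) or 3 (0.134) or shMPZL3 #2 replicate 1 (0.147) or 3 (0.177), whereas the direct difference passed the test without any 1 library.

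ITGB5 (ENSG00000082781), which pairs with ITGAV into a vitronectin receptor, rose with shMPZL3 #1. It had 2510.4, 3111 and 3131 normalized counts in the scr control, 4181, 3995 and 4697 with shMPZL3 #1, and 3461, 2862 and 3057 with shMPZL3 #2. The libraries of shMPZL3 #1 stood above all others. The log2 fold change was 0.56 ± 0.11 (adjusted P = 0.00118) with shMPZL3 #1 and 0.10 with shMPZL3 #2 (95% confidence interval -0.14 to 0.33). The direct difference, shMPZL3 #2 minus shMPZL3 #1, was -0.46 ± 0.11 (adjusted P = 0.0107). In the grouped comparison ITGB5 did not pass the test (0.35 ± 0.15, adjusted P = 0.138).

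**Figure D2:**
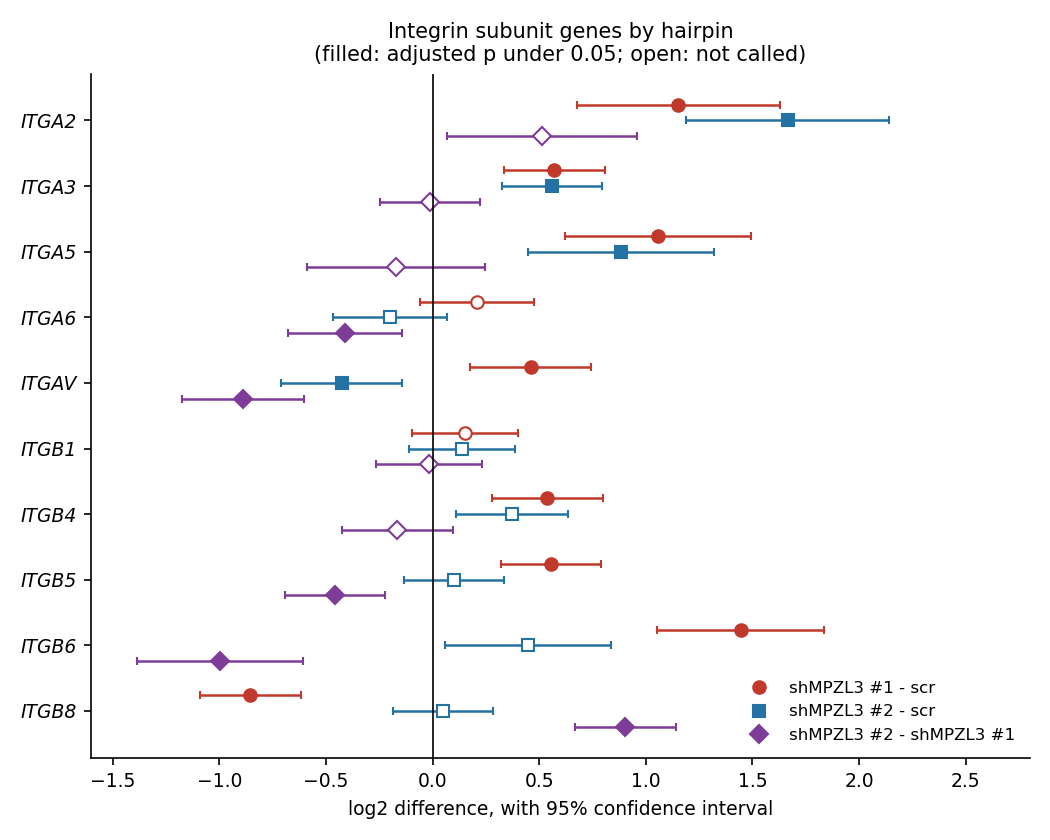
Log2 differences (x axis) of the 10 integrin subunit genes (y axis) for each hairpin against the scr control and for shMPZL3 #2 against shMPZL3 #1, with 95% confidence intervals from edgeR's quasi-likelihood fit; filled symbols have an adjusted P under 0.05 and open symbols were not called. ITGA2, ITGA3 and ITGA5 lie to the right of 0 with both hairpins, and ITGAV lies on either side of it.

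The fibronectin receptor gene ITGA5 (ENSG00000161638; chromosome 12, 54395261 to 54419460, minus strand) rose with both hairpins. It had 240.7, 219 and 267 normalized counts in the scr control, 431, 415 and 659 with shMPZL3 #1, and 306, 502 and 528 with shMPZL3 #2. All 6 knockdown libraries were above the control. The log2 fold change was 1.06 ± 0.21 (adjusted P = 0.00100) with shMPZL3 #1, 0.89 ± 0.21 (adjusted P = 0.00786) with shMPZL3 #2 and 0.97 ± 0.20 (adjusted P = 0.00777) in the grouped comparison. The hairpins were not shown to differ, with a difference of -0.17 (95% confidence interval -0.59 to 0.25). The grouped comparison missed the threshold once scr control replicate 1 (adjusted P = 0.0525) or 2 (0.0508) was removed, and the calls for each hairpin passed the test without any 1 library. Its promoter window is shown because it was the only one of the 13 with an AP-1 match (chr12:54419217-54419516, GRCh38.p14, minus strand, capitals as above).
ITGA5: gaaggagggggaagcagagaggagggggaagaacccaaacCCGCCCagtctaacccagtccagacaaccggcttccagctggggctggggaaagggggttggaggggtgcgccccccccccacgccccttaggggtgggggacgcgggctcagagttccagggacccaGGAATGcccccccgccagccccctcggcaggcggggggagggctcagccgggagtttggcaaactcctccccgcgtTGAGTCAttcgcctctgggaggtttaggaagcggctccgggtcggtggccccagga
The AP-1 match starts at position -6, and this window also held a TEAD match at -82 and an SP match at -210. These letters do not show that a factor was bound.

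ITGB1 (ENSG00000150093), the beta chain with the most partners, had the smallest spread over the 9 libraries, a root-mean-square deviation of 0.153 in log2 CPM. It had 18554, 19989.6 and 21329 normalized counts in the scr control, 21160.4, 25380.3 and 20071 with shMPZL3 #1, and 19065, 25471 and 21342 with shMPZL3 #2. The groups overlapped throughout. Its log2 fold change was 0.15 with shMPZL3 #1 (95% confidence interval -0.10 to 0.40) and 0.14 with shMPZL3 #2 (-0.11 to 0.39), and it passed the test in none of the 4 comparisons.

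The collagen receptor gene ITGA2 (ENSG00000164171; chromosome 5, 52989326 to 53094779, plus strand) had the largest grouped rise of the 10. It had 130.3, 189 and 224 normalized counts in the scr control, 269, 474 and 465 with shMPZL3 #1, and 461, 694 and 569.7 with shMPZL3 #2. All 6 knockdown libraries were above the control. It rose 2.22-fold with shMPZL3 #1 (log2 fold change 1.15 ± 0.23, adjusted P = 0.000995) and 3.17-fold with shMPZL3 #2 (1.67 ± 0.22, adjusted P = 8.88e-05), and the grouped log2 fold change was 1.43 ± 0.26 (adjusted P = 0.00345). The difference between the hairpins was 0.51 (95% confidence interval 0.07 to 0.96, adjusted P = 0.113). Of the 5 grouped calls this was the one that passed the test without any 1 library, with log2 fold changes from 1.24 to 1.60. With 98 to 758 counts per library it was also the member with the fewest counts.

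The laminin receptor gene ITGA3 (ENSG00000005884; chromosome 17, 50055968 to 50090481, plus strand) rose with both hairpins. It had 4229.6, 4742 and 4892 normalized counts in the scr control, 6628, 6101 and 7875 with shMPZL3 #1, and 6575, 6310.5 and 7561 with shMPZL3 #2. Again no knockdown library overlapped the control. The log2 fold change was 0.57 ± 0.11 (adjusted P = 0.000975) with shMPZL3 #1 and 0.56 ± 0.11 (adjusted P = 0.00252) with shMPZL3 #2, and the difference between them was -0.01 (95% confidence interval -0.25 to 0.22). The grouped log2 fold change was 0.57 ± 0.11 (adjusted P = 0.00492), which missed the threshold once scr control replicate 1 was removed (0.0547).

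ITGB4 (ENSG00000132470), the hemidesmosome beta chain, had 1037, 1199.8 and 1126 normalized counts in the scr control, 1605, 1466 and 1817 with shMPZL3 #1, and 1643, 1184 and 1532 with shMPZL3 #2. Only shMPZL3 #2 replicate 2 fell within the range of the control. The log2 fold change was 0.54 ± 0.12 (adjusted P = 0.00333) with shMPZL3 #1, 0.37 ± 0.12 (adjusted P = 0.0510) with shMPZL3 #2 and 0.46 ± 0.12 (adjusted P = 0.0258) in the grouped comparison. The grouped call was lost without any 1 scr control library (adjusted P = 0.156, 0.0692 and 0.0931 without replicate 1, 2 and 3). With shMPZL3 #2 the gene passed the test without shMPZL3 #2 replicate 2 (0.0063) or shMPZL3 #1 replicate 2 (0.038) or 3 (0.0395). It also passed with DESeq2 (0.0377), upper-quartile normalization (0.0493), no filter (0.0194), at least 10 counts in every library (0.0403) and only the 2 groups in the fit (0.0296).

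ITGA6 (ENSG00000091409), the only alpha partner of ITGB4, did not pass the test with either hairpin. It had 779, 754 and 736 normalized counts in the scr control, 749.7, 985 and 888 with shMPZL3 #1, and 633, 768 and 576 with shMPZL3 #2. The scr control lay within the range spanned by the 6 knockdown libraries. The log2 fold change was 0.21 with shMPZL3 #1 (95% confidence interval -0.06 to 0.48) and -0.20 with shMPZL3 #2 (-0.47 to 0.07). The direct difference was -0.41 ± 0.13 (adjusted P = 0.0370), and that call was lost in 6 of 9 fits that left out 1 library, at an adjusted P of up to 0.164. Those 6 were without scr control replicate 2 or 3, shMPZL3 #1 replicate 2 or 3, or shMPZL3 #2 replicate 1 or 3. An antisense gene that overlaps ITGA6, AC078883.1, had 340 counts over all libraries against 6818.

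Levels of different genes were compared as RPKM, which is CPM divided by the exon length of the gene in kilobases. In the scr control ITGB1 was the most abundant at 162 ± 11.2 (SD, n = 3), followed by ITGAV at 78.6 ± 8.79. ITGB6 (37.1 ± 9.47) and ITGB8 (27.7 ± 0.977) came next and overlapped in range (without division by length their order turned, with ITGB8 at 23.9% and ITGB6 at 9.78% of the summed counts of the beta members), as did ITGA3 (23.0 ± 1.72) and ITGB5 (22.0 ± 2.66). ITGB4 (8.07 ± 0.587), ITGA6 (5.64 ± 0.163), ITGA5 (1.56 ± 0.154) and ITGA2 (1.11 ± 0.292) followed without overlap. With shMPZL3 #1 ITGB6 reached 101 ± 24.1 RPKM and overlapped ITGAV (108 ± 20.2), whereas ITGB8, at 15.3 ± 2.14, came to lie below ITGA3 and ITGB5. With shMPZL3 #2 ITGAV (58.5 ± 8.68) and ITGB6 (50.7 ± 9.15) overlapped as well, and ITGA2 (3.54 ± 0.718) and ITGA5 (2.86 ± 0.780) overlapped at the lower end. The range from the most to the least abundant member was thus wide in every group, and ITGA2 and ITGA5 remained the lowest pair even after they rose.

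**Figure D3:**
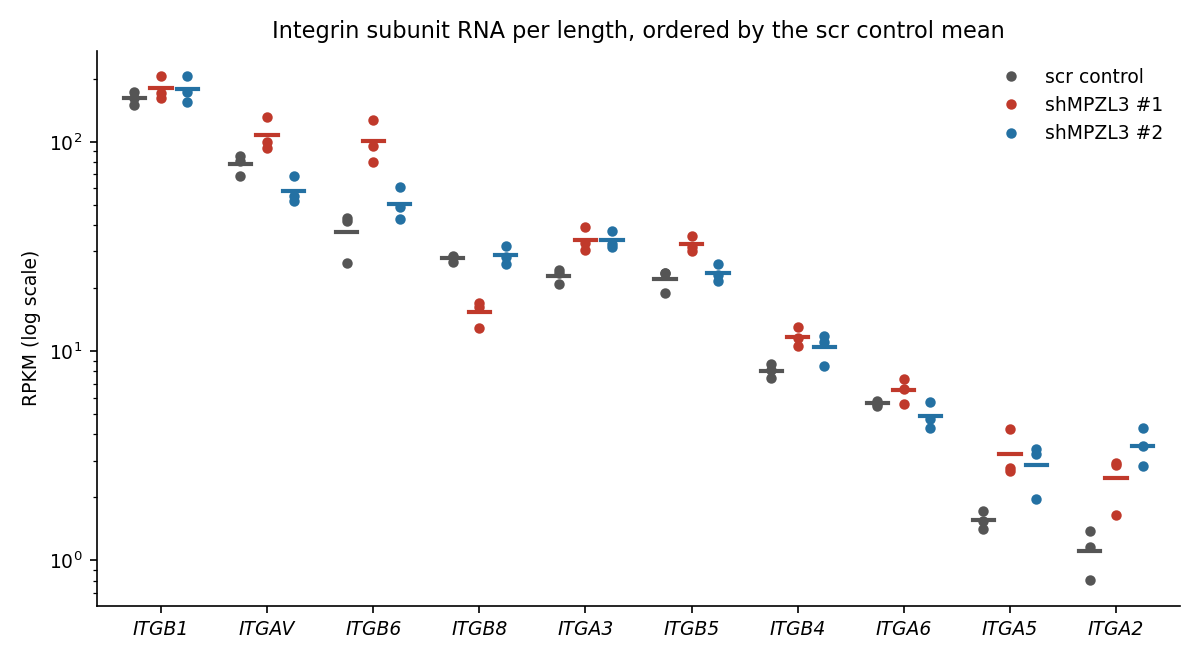
RPKM (y axis, log scale) of the 10 integrin subunit genes (x axis, ordered by the mean of the scr control) in the 9 libraries; points are libraries and bars are means of 3 libraries by group. ITGB1 is highest in all groups, and ITGB6 is level with ITGAV with shMPZL3 #1.

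The makeup of the beta subunit RNA shifted most with shMPZL3 #1 and that of the alpha subunit RNA most with shMPZL3 #2. Of the summed RPKM of the 5 beta members, ITGB6 held 14.3% ± 2.51 (SD, n = 3) in the scr control, 29.4% ± 3.44 under shMPZL3 #1 and 17.3% ± 1.04 under shMPZL3 #2. ITGB8 held 10.9% ± 0.709, 4.53% ± 0.611 and 9.86% ± 0.139, and ITGB1 63.1% ± 2.16, 52.9% ± 2.15 and 60.9% ± 1.78. The ratio of ITGB6 to ITGB8 ranged from 0.985 to 1.54 in the scr control, while shMPZL3 #1 gave 4.95 to 7.53 and shMPZL3 #2 gave 1.65 to 1.90. Of the summed RPKM of the 5 alpha members, ITGAV held 71.5% ± 1.10, 69.7% ± 5.02 and 56.3% ± 3.87, and ITGA3 20.9% ± 0.487, 22.4% ± 4.39 and 32.9% ± 4.50. ITGA2 rose from 1.00% ± 0.174 to 1.59% ± 0.339 and 3.39% ± 0.388. Some smaller shifts were also free of overlap. ITGB6 held 16.4% to 18.4% of the beta sum with shMPZL3 #2 against 11.4% to 15.9% in the scr control. ITGA2 held 1.22% to 1.88% of the alpha sum with shMPZL3 #1 against 0.819% to 1.16%. The ratio of ITGB6 to ITGAV was 0.381 to 0.516 in the scr control, 0.859 to 0.972 under shMPZL3 #1 and 0.821 to 0.888 under shMPZL3 #2, so that all 6 knockdown libraries were above the control for a pair whose members did not both rise with shMPZL3 #2. These shares are of RNA and not of protein, they leave out ITGB3, which is described below, and they were not tested.

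**Figure D4:**
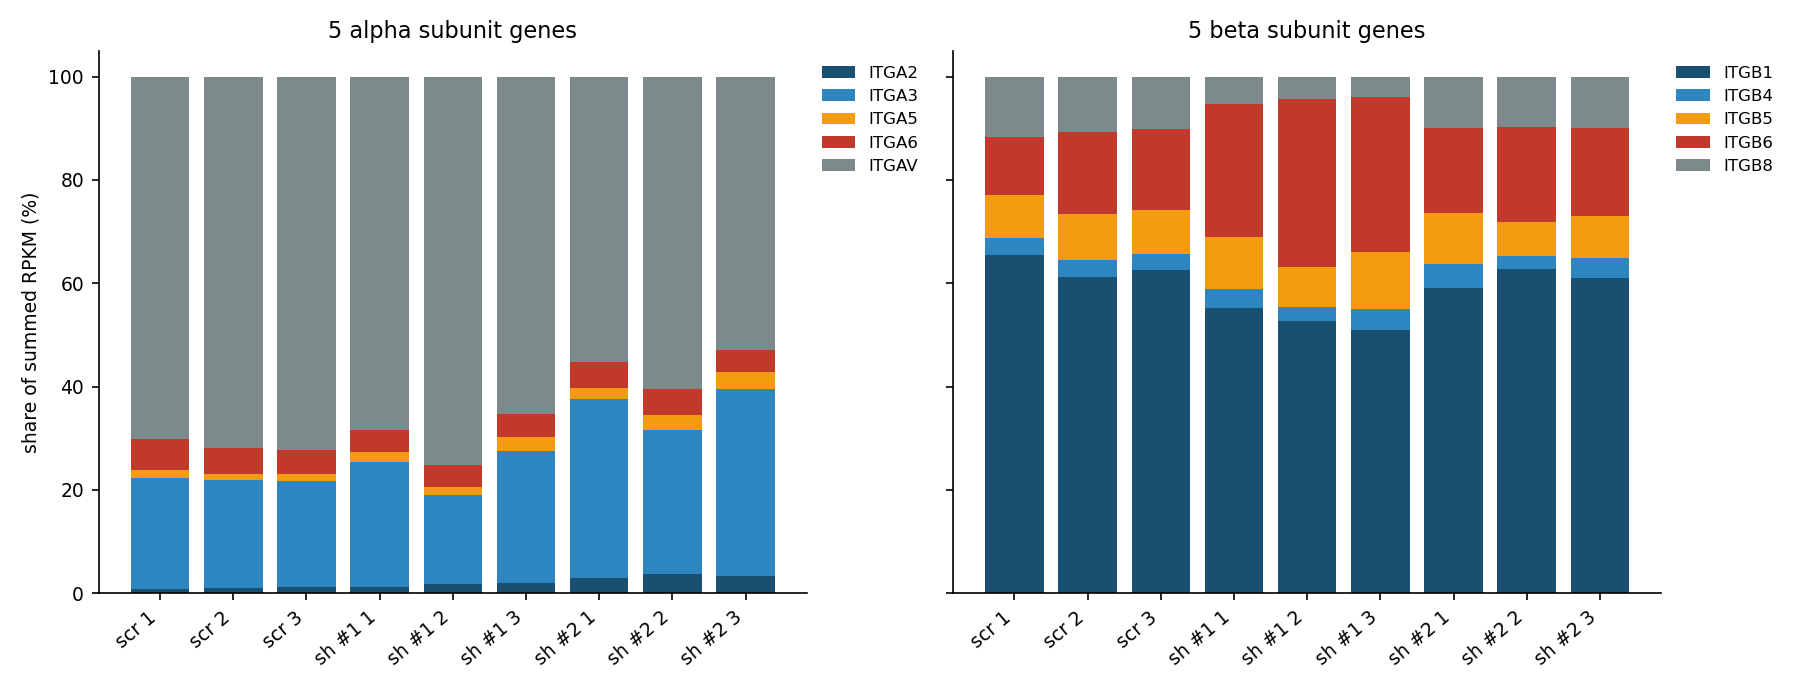
Share (y axis, percent) of each of the 5 alpha (left) and 5 beta (right) subunit genes in their summed RPKM, in stacked bars for the 9 libraries (x axis). ITGB6 takes 25.8% to 32.6% of the beta sum with shMPZL3 #1 against 11.4% to 15.9% in the scr control, and ITGAV takes 53.0% to 60.5% of the alpha sum with shMPZL3 #2 against 70.2% to 72.3%.

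Each member was set beside 11824 protein-coding genes by its pattern over the 9 libraries, as the root-mean-square difference of log2 CPM centred on the mean of each gene. The nearest to ITGB6 were LMF1 and GPR155 (0.152 and 0.154, against 0.665 for the spread of ITGB6 itself), and the nearest to ITGB8 were EPRS and NIP7 (0.0884 and 0.110, against 0.436). The nearest to ITGA2 were MMP7, a matrix metalloprotease, and SAT1 (0.146 and 0.148, against 0.766). MMP7 had mean normalized counts of 7283 in the scr control, 15012 under shMPZL3 #1 and 21507 under shMPZL3 #2. The nearest to ITGAV were GALNT1 and ZNF704, to ITGB5 SUN2 and RHOB, to ITGA5 FOXF2 and KIF3C, and to ITGA3 DLGAP4 and OCIAD2. ITGB4 was nearest to ATG2A and RRBP1, ITGA6 to ZNF322 and FNIP1, and ITGB1 to VAMP3 and ERP44, at 0.0525 to 0.0658. Among the members themselves the closest pair was ITGA3 and ITGB4 (0.138) and the farthest ITGB6 and ITGB8 (1.03), while ITGA6 and its partner ITGB4 were 0.347 apart.

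Of the 16 other integrin subunit genes 8 were tested, and 2 rose in the grouped comparison, where 9.36% of all tested genes did. ITGB2, the beta chain of the leukocyte integrins, had a mean of 408 normalized counts in the scr control, 1146 under shMPZL3 #1 and 896 under shMPZL3 #2 (grouped log2 fold change 1.32 ± 0.22, adjusted P = 0.0021). An antisense gene, ITGB2-AS1, shares 303 exon bases with it and had 1448 counts over all libraries against 7621. ITGAM, an alpha partner of ITGB2, had means of 7.86, 36.6 and 30.8 normalized counts (2.01 ± 0.45, adjusted P = 0.0109), with 3 to 46 counts per library. Both rose with each hairpin. The leukocyte marker PTPRC had 4 to 26 counts per library. ITGA1, an alpha partner of ITGB1, rose with shMPZL3 #1 (0.42 ± 0.15, adjusted P = 0.0404), and ITGA7, a laminin receptor chain of muscle, fell with it (-1.25 ± 0.25, adjusted P = 0.00126). ITGB3, a further partner of ITGAV, was steady at 37.6 ± 3.38 RPKM in the scr control, 38.0 ± 3.44 under shMPZL3 #1 and 38.3 ± 3.43 under shMPZL3 #2. ITGA9, ITGAE and ITGB7 passed the test in no comparison, and reads of ITGB7, ITGA1, ITGA7, ITGA9, ITGAE and ITGB3 may be shared with overlapping genes. ITGB3 shares 2266 of its 4394 exon bases with AC068234.1, a gene on the same strand that had 0 counts over all libraries. Whether reads in the shared bases were counted was not tested, and the RPKM of ITGB3 may be too low.

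The ligands of these receptors were counted in 3 lists, beside 9.36% of all tested genes called higher and 6.40% called lower in the grouped comparison. Of 12 tested fibronectin-type and RGD ligands 6 rose in the grouped comparison. Whether each gene of this list encodes an RGD motif was not tested. FN1, which encodes fibronectin, rose most (grouped log2 fold change 2.78 ± 0.49, adjusted P = 0.00312). The control mean of FN1 was 894 normalized counts, against 3276 with shMPZL3 #1 and 9049.9 with shMPZL3 #2. TNC, THBS1, CYR61 and CTGF also rose with both hairpins and are named after their values were seen. The median log2 fold change of the list was 0.75. Of 11 laminin chains 2 rose, among them LAMB3 (0.97 ± 0.21, adjusted P = 0.00885). LAMA3, another laminin chain, fell with shMPZL3 #1 by 0.38 on the log2 scale (adjusted P = 0.0107) and rose with shMPZL3 #2 by 0.38 (adjusted P = 0.0205). Among the laminin chains LAMA1 also fell with shMPZL3 #2 (-0.83 ± 0.13, adjusted P = 0.00042) and LAMC3 with shMPZL3 #1 (-1.09 ± 0.34, adjusted P = 0.0214). Both are named after their values were seen. With shMPZL3 #1 6 laminin chains were called higher and 2 lower, beside 16.8% and 15.3% of all tested genes. With shMPZL3 #2 it was 3 and 1, beside 9.36% and 5.80%. Of 8 tested collagen chains 2 rose, led by COL1A1 (1.05 ± 0.25, adjusted P = 0.015), a gene that is also among the fibroblast markers whose summed level is given above.

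Partners inside the cell and in the membrane were counted beside the same 9.36%, to which the adhesion kinases and scaffolds, at 1 of 14, lay close. The lists are short, so that 1 gene more or less changes the share of a list widely. Of 16 talin, kindlin and actin linkers 3 rose in the grouped comparison, ACTN1 (0.81 ± 0.11, adjusted P = 0.000795), TNS4 (0.88 ± 0.13, adjusted P = 0.000948) and ZYX (0.68 ± 0.15, adjusted P = 0.0101), all of which tie adhesions to actin, and the list median was 0.19. Of 14 adhesion kinases and scaffolds LIMS2 alone rose in the grouped comparison (0.98 ± 0.16, adjusted P = 0.00216). Of 5 inactivators KANK2 alone did (0.51 ± 0.11, adjusted P = 0.00828). Among 13 membrane partners SDC4, a heparan sulfate proteoglycan that acts with the fibronectin receptor, rose in the grouped comparison (1.04 ± 0.21, adjusted P = 0.00656), as did PLAUR, the urokinase receptor (0.91 ± 0.12, adjusted P = 0.00061), and CAV1 (0.88 ± 0.14, adjusted P = 0.00177), and 4 rose in all. Of 7 hemidesmosome partners of ITGB4 2 rose, LAMB3 among them. Of 9 genes that hold latent TGF-β or respond to it 3 rose with both hairpins, among them TGFBI (2.71 ± 0.61, adjusted P = 0.0119) and LTBP2 (0.56 ± 0.14, adjusted P = 0.0167). No gene of these 10 lists was called lower in the grouped comparison by edgeR's quasi-likelihood test, whereas 5 were lower at an unadjusted P under 0.05 and 1, LAMA1, was called lower by DESeq2. With single hairpins some partners fell, and they are named after their values were seen. With shMPZL3 #2 these were the linkers TLN2 (-0.46 ± 0.12, adjusted P = 0.0156) and TNS3 (-0.42 ± 0.10, adjusted P = 0.0119), the scaffold CRK (-0.36 ± 0.11, adjusted P = 0.0362), the proteoglycan SDC1 (-0.56 ± 0.12, adjusted P = 0.00576) and SMAD7, an inhibitor of TGF-β signalling (-0.40 ± 0.13, adjusted P = 0.0457). With shMPZL3 #1 it was FERMT1, a kindlin (-0.57 ± 0.20, adjusted P = 0.0411). Rises were called as well: of the 16 linkers 8 were higher and 1 lower with shMPZL3 #1, beside 16.8% and 15.3% of all tested genes. With shMPZL3 #2 it was 4 and 2, beside 9.36% and 5.80%. Counted higher and lower with shMPZL3 #1, then with shMPZL3 #2, the 14 kinases and scaffolds had 5 and 0, then 3 and 1. The 5 inactivators had 2 and 0, then 1 and 0, and the 13 membrane partners 4 and 0, then 4 and 1. The 7 hemidesmosome partners had 3 and 1, then 4 and 0, and the 9 genes of the TGF-β list 6 and 0, then 3 and 1.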

How the data were processed

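OVCAR4 libraries, 3 per group and described as biological replicates, were made from poly-A selected RNA without strand information. The authors aligned the reads with HISAT2 2.0.5 (GRCh38) and deposited raw read counts per gene, not normalized and not pooled. The tool versions, with featureCounts 1.5.0-p3, are those of the submitters' processing notes. The OVCA433 libraries were not analysed here. All 58735 genes matched GENCODE release 29 in identifier, position and length.

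The deposited counts were tested with edgeR 4.0.16 (glmQLFit and glmQLFTest, two-sided) in R 4.3.3, after filterByExpr left 16928 genes, with TMM factors of 0.983 to 1.03 and Benjamini-Hochberg adjustment over all genes tested. The grouped comparison set 6 knockdown against 3 scr control libraries, and the others were contrasts of a fit of 3 groups. Genes were called at an adjusted P under 0.05. Log2 CPM used a prior count of 2, and RPKM the gene lengths of the table. Exact permutation tests compared mean log2 CPM. The members and the gene lists, written from general knowledge, were chosen with earlier results of these data known. Named genes are the members, MPZL3, the other tested integrin genes, the largest rise and fall of each list among those called in the grouped comparison, the genes of a list called with both hairpins in 1 direction where these were 3 or fewer, and the 2 genes nearest to each member in pattern. LAMA1, LAMA3, LAMC3, TNC, THBS1, CYR61, CTGF, TLN2, TNS3, CRK, SDC1, SMAD7 and FERMT1 fall outside this rule and were chosen after their values were seen. Some genes that the rule names are not reported here. Likeness was searched among protein-coding genes whose log2 CPM averaged 1 or more.

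Total counts were 15040102 to 27835841 per library, and ITGA2, with the fewest counts of the members, was measured with the least counting precision. Libraries of a group differed by more than counting noise (chi-square per gene 3.08 to 23.2). Alternatives were DESeq2 1.42.0, other normalizations, filters, fits and thresholds, and leaving out each library.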

Additional observations from a re-analysis of the deposited data

Results flagged for a closer look

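The direct comparison of the hairpins set 5 of the 10 genes apart. As log2 differences, shMPZL3 #2 minus shMPZL3 #1, tested by edgeR's quasi-likelihood contrast, ITGB6 was at -0.996 (adjusted P = 0.00164), ITGAV at -0.887 (adjusted P = 0.000386), ITGB5 at -0.457 (adjusted P = 0.0107), ITGA6 at -0.409 (adjusted P = 0.0370) and ITGB8 at 0.903 (adjusted P = 6.32e-05). For ITGAV every library of shMPZL3 #1 was above and every library of shMPZL3 #2 below the scr control. MPZL3 itself was lower with shMPZL3 #1 than with shMPZL3 #2, and whether that difference bears on these 5 genes was not tested.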

How the results depend on the processing

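Of 640 refits of single members, 586 kept the direction and the side of the threshold, 25 lost a call, 15 gained one and 14 changed sign. The sign changed only for values that were not called, when 1 library was left out. In the grouped comparison these were, with their range, ITGA6 (-0.0647 to 0.108) and ITGAV (-0.0916 to 0.198), with shMPZL3 #2 against the scr control ITGB5 (-0.00491 to 0.157) and ITGB8 (-0.0371 to 0.102), and with shMPZL3 #2 against shMPZL3 #1 ITGB1 (-0.133 to 0.0915), ITGA3 (-0.0991 to 0.0997) and ITGA5 (-0.322 to 0.0762). Leaving out 1 library moved the members called higher in the grouped comparison between 1 and 5 (1, 2 and 3 without scr control replicate 1, 2 and 3) and those called lower with shMPZL3 #2 between 0 and 1. With a log2 fold change of at least 1 as a second condition, 2 members were higher and 0 lower in the grouped comparison, 3 and 0 with shMPZL3 #1, 1 and 0 with shMPZL3 #2, and 0 and 0 between the hairpins. Averaging the hairpins in the fit of 3 groups called ITGB5 higher (adjusted P = 0.0192) and 1 member, ITGB8, lower (-0.40, adjusted P = 0.00497). Without a filter 5 members were higher with shMPZL3 #2, ITGB4 and ITGB6 among them, and 2 higher with shMPZL3 #2 than with shMPZL3 #1, ITGA2 among them. With at least 10 counts in every library 0 members were lower with shMPZL3 #2. The cause of these changes was not tested. Shares in the scr control without division by length were 24.3% for ITGA3, 4% for ITGA6, 69.5% for ITGAV, 55.2% for ITGB1, 8.04% for ITGB5, 9.78% for ITGB6 and 23.9% for ITGB8.

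A fit with the replicate number as a block (replicate block) called 5 members higher with shMPZL3 #2 against the scr control (ITGB4, adjusted P = 0.0200, and ITGB6, 0.00153, were added) and 2 higher with shMPZL3 #2 than with shMPZL3 #1 (ITGA2, 0.00406, was added). It changed no other call of a member. The numbers were not taken to pair the libraries, since the correlation of deviations between same-numbered libraries exceeded 0.1 in 3 of 9 pairs (-0.00143 to 0.218, median 0.0434) and not in every pair. Against the decision, 0 of 18 pairs with different numbers exceeded it (-0.147 to 0.0671, median -0.0282), the same-numbered pairs between the hairpins were at 0.137, 0.218 and 0.0966, and 5 of 9 libraries correlated best with their own number in both other groups.

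Over all genes, leaving out 1 library gave 453 to 1737 grouped rises (1584 with all libraries) and 172 to 1450 falls (1083). With shMPZL3 #2 it gave 910 to 1732 rises (1585) and 354 to 1388 falls (982), and between the hairpins 667 to 1521 rises (1279) and 798 to 1432 falls (1280). With shMPZL3 #1 it gave 1689 to 2824 falls (2585). The averaged fit gave 2479 and 2198, and the block 1597 falls with shMPZL3 #2 and 2015 rises between the hairpins. The fold condition left 594 and 87 grouped, 1006 and 236 with shMPZL3 #1, 572 and 114 with shMPZL3 #2, and 221 and 318 between them. DESeq2 called 4 laminin chains in place of 2, 4 hemidesmosome partners in place of 2 and 2 inactivators in place of 1 higher.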

Other observations

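Integrin genes of the list that did not pass the filter had few counts. ITGA8 had 0 counts in all 9 libraries, ITGA4 had at most 6 and ITGA2B at most 12. In 1 library taken alone, 0 counts still allows an expected count of up to 3. ITGAX, another alpha partner of ITGB2, had 0 to 16 counts per library, and its mean level was 0.0185 RPKM for the scr control, 0.0792 for shMPZL3 #1 and 0.0110 for shMPZL3 #2. The summed RPKM of the 5 alpha members was 97.9 to 119 in the scr control, 136 to 174 with shMPZL3 #1 and 94.3 to 113 with shMPZL3 #2. The summed RPKM of the 5 beta members was 229.6 to 276, 311 to 391 and 261 to 329.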
